A study of Mus musculus with 24 samples.

Results

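The genes described here encode major histocompatibility complex (MHC) class I molecules and the class I-like molecules built on the same plan. They were chosen by name as B2m, H2-D1, H2-K1, H2-M3, H2-Q10, Cd1d1, Mr1 and Hfe. Of these 8 names, 6 had a row among the 547 genes of the expression table. H2-D1 and H2-M3 were not analysed here.

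A class I molecule pairs a heavy chain with beta-2 microglobulin, the small light chain encoded by B2m, and without this partner most heavy chains do not reach the cell surface. The classical heavy chains, such as H2-K1, display peptides cut by the proteasome and carried into the endoplasmic reticulum by the Tap transporter, and CD8+ T cells and natural killer (NK) cells read them. The class I-like chains present other cargo or none. Cd1d1 shows lipids to natural killer T cells, Mr1 shows vitamin B-derived metabolites to mucosal-associated invariant T cells, and Hfe binds the transferrin receptor and takes part in the control of iron. In the gut these molecules are found on epithelial cells as well as on immune cells, and interferons raise the classical chains and B2m.

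The study asked whether 1 early course of the macrolide tylosin changes the host as repeated courses do. Ileal RNA was hybridised at week 7 of life to the NanoString nCounter GX mouse immunology panel, which counts colour-coded probe pairs molecule by molecule, with no amplification. All mice were C57BL/6 of both sexes, without an engineered allele. Control mice (n = 7, 4 male and 3 female) received no antibiotic, PAT1 mice (pulsed antibiotic treatment, n = 7, 4 male and 3 female) received tylosin early in life through the milk of the treated dam, and PAT3 mice (n = 10, 4 male and 6 female) received that course and further courses after weaning, 3 in all. Group sizes follow the labels, from which the account of the study differs for PAT1 and PAT3, and whether a mouse belongs to the other PAT group was not tested. Treatment was given to litters as a whole, and weaned mice were caged by sex and treatment, so litter, cage and treatment cannot be told apart.

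The deposited values were log2 counts divided by 1 size factor per sample, and totals ran from 171671 to 782392 counts per mouse, with a median of 580162. Of the 8 epithelial markers listed, 7 were in the table, with summed normalized counts between 96447 and 196827 in every mouse. With no other tissue beside it, this sum, which the most counted markers dominate, does not identify the ileum. By limma, Pigr and Ceacam1 of this list were lower than Control in both antibiotic groups and Ccl25 was higher in both. Btnl1 was higher in PAT1 and Abcb1a in PAT3. The median of all genes was 0.14 lower on the log2 scale in PAT1 and 0.19 lower in PAT3 than in Control, so that re-centring on that median raises every difference from Control by these amounts. PAT3 replicate 5, a female, had the lowest B2m and H2-K1 of all mice, and the B2m and H2-K1 differences that involve PAT3 are given with and without it. A normalized count depends on the efficiency of each probe, so levels are compared between mice and not between genes. The probe sequences were not analysed here. H2-K1 and H2-Q10 belong to a family of near-identical genes, and whether their probes also caught transcripts of other members was not tested.

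Class I promoters are known for a shared set of control elements. Those of H2-Q10, which was called in both comparisons with Control, and of H2-K1 and B2m, which were not, are shown. The stretches below are from RefSeq, assembly GRCm38.p6, read in the direction of transcription. The H2-K1 stretch is at chr17:34000349-34000468 on the minus strand, bases -121 to -2 from the start site. The H2-Q10 stretch is at chr17:35469903-35470025 on the plus strand, bases -186 to -64, and that of B2m is at chr2:122147540-122147659 on the plus strand, bases -147 to -28. Capitals mark the letters of 4 motifs, searched on both strands: the NF-kB motif of enhancer A (the first 10 capitals of the H2-K1 stretch, with any base allowed at position 4), AANNGAAA (the letters of an interferon-response element), TGACGC (a cyclic AMP response element-like site) and CCAAT.
H2-K1: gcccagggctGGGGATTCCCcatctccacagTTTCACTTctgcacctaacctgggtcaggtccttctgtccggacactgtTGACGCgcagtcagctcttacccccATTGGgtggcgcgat
H2-Q10: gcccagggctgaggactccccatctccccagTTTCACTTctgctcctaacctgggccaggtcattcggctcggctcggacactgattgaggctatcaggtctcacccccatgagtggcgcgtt
B2m: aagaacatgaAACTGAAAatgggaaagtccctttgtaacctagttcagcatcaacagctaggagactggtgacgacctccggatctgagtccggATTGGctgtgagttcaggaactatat
Over 126 aligned positions the H2-K1 and H2-Q10 stretches were 81.7% identical, with 9 gap positions. The NF-kB motif, present in 0.184% of 32544 promoters of the same length, was in the H2-K1 promoter and was not matched in the H2-Q10 stretch. AANNGAAA was in H2-K1, H2-Q10, B2m, Mr1 and Hfe, and in 23.9% of all promoters. TGACGC (7.44% of promoters) was found for H2-K1, and CCAAT (37.4%) for H2-K1 and B2m. Of the 6 genes, 5 had a promoter entry, of which H2-K1 had 2 and the first is printed. A match describes letters and is not evidence of binding.

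Compared with Control, H2-Q10 rose after both regimens and Hfe rose after PAT3, whereas B2m and H2-K1 did not pass the test in either direction. In PAT1, 1 of the 6 genes passed the limma test at an adjusted p under 0.05 (termed called), where 18.5% of the 547 genes were called, 7.31% as higher. In PAT3, 2 of the 6 were called, both higher, where 31.8% of all genes were called and 13.9% were higher. These shares are not far from those of the whole panel. The median log2 difference of the 6 genes was 0.21 in PAT1 and 0.52 in PAT3, beside 0.01 and 0.03 over all genes. No gene of the 6 had PAT values wholly outside the Control range, which held for 6.22% of all genes in PAT1 (2.38% above it) and 9.32% in PAT3 (2.01% above it). Both comparisons use the same Control mice.

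**Figure D1:**
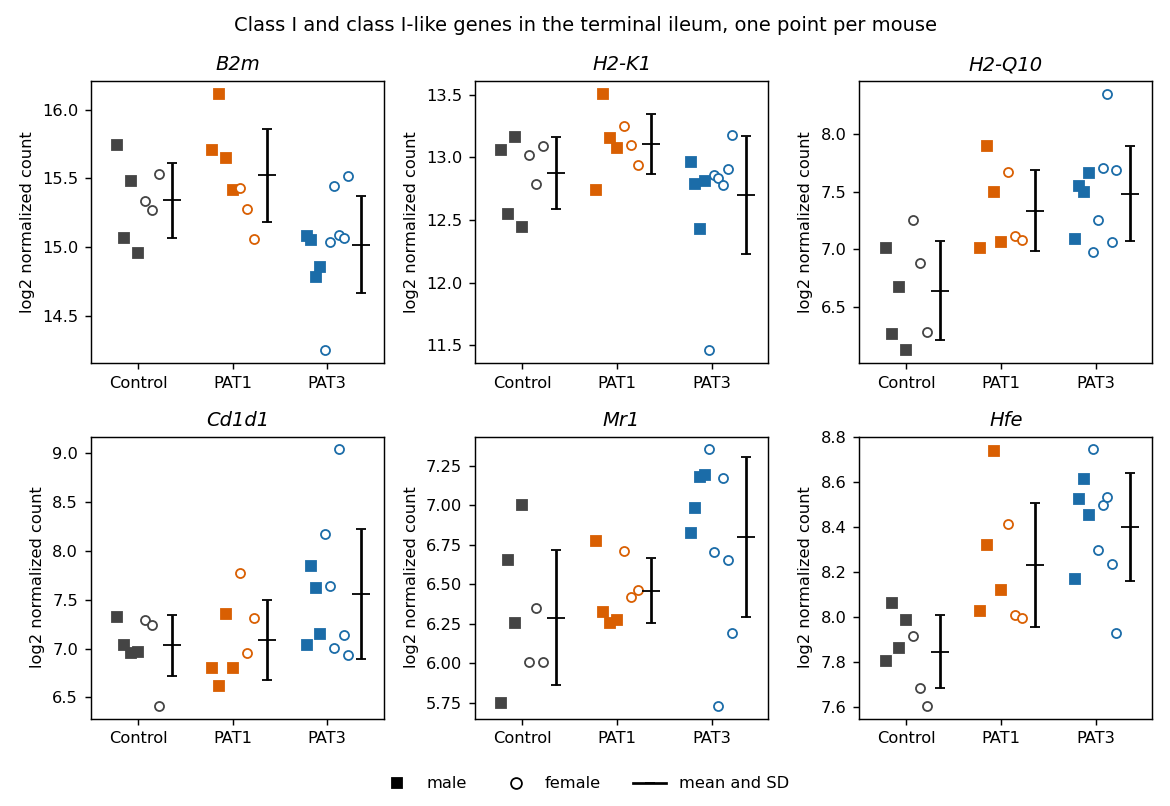
Log2 normalized counts of the 6 genes, one panel per gene with its own scale on the y axis, for Control, PAT1 and PAT3 mice on the x axis. Squares are males, circles females, and bars are the mean and SD. All 7 PAT1 and all 10 PAT3 mice lay above the Control mean for H2-Q10 and Hfe, while the groups mixed for B2m and H2-K1, in which PAT3 replicate 5 is the lowest point.

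B2m, the shared light chain, was among the most counted transcripts. Its log2 normalized count ran from 14.96 through a median of 15.33 to 15.74 in Control, from 15.06 through 15.43 to 16.11 in PAT1, and from 14.25 through 15.06 to 15.52 in PAT3. The ranges overlapped throughout. The highest value was in a PAT1 mouse, and 8 of 10 PAT3 mice lay below the Control mean. The log2 difference from Control was 0.18 ± 0.18 (SE) in PAT1 (limma adjusted p = 0.535) and -0.32 ± 0.17 in PAT3 (adjusted p = 0.136, or 0.229 without PAT3 replicate 5). Between the antibiotic groups it was -0.50 ± 0.17 (adjusted p = 0.0622, or 0.0931 without PAT3 replicate 5), where 4.2% of all genes were called, 1.46% as higher and 2.74% as lower. The moderated F-test over the 3 groups called B2m (adjusted p = 0.0469), along with 34.6% of all genes, and the call was lost after re-centring on the median of all genes (adjusted p = 0.143). With 1 mouse left out, the call was kept in 6 of 24 fits, those without Control replicates 2 or 4, PAT1 replicates 6 or 7 or PAT3 replicates 7 or 10 (adjusted p 0.0223 to 0.0948 over all 24). Under quantile normalization the PAT3 difference from Control turned to 0.26 (limma adjusted p = 0.0628), the 1 reversal among 38 alternatives. In 2 of the 38 B2m was called as lower in PAT3. These were sample weights (-0.34, adjusted p = 0.0115) and a fit that also took in the size factor (-0.36, 0.0407). With 1 mouse left out, the difference stayed negative in all 24 fits (-0.39 to -0.24). The direction of B2m in PAT3 thus depended on the scaling. In whole tissue, fewer cells of a type and less RNA per cell cannot be told apart.

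H2-K1, the classical heavy chain that presents peptides to CD8+ T cells, ran from 12.45 through a median of 13.02 to 13.17 in Control, from 12.74 through 13.10 to 13.51 in PAT1, and from 11.46 through 12.82 to 13.17 in PAT3. Apart from PAT3 replicate 5 at 11.46, the PAT3 mice ran from 12.43 to 13.17, which is almost the Control range. The log2 difference was 0.23 ± 0.20 (SE) in PAT1 (limma adjusted p = 0.462). In PAT3 it was -0.17 ± 0.18 (adjusted p = 0.478), and -0.04 without PAT3 replicate 5 (adjusted p = 0.830). Expressed as a fold, the 95% confidence interval was 0.887 to 1.56 in PAT1 and 0.684 to 1.15 in PAT3, so these data bound a change of H2-K1 without detecting one. H2-K1 differed by -0.41 ± 0.18 between PAT3 and PAT1 (adjusted p = 0.137), and by -0.27 without PAT3 replicate 5 (adjusted p = 0.195).

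H2-Q10, a heavy chain known as a secreted class I molecule made chiefly by the liver, rose 1.62-fold in PAT1 and 1.79-fold in PAT3. Its log2 values ran from 6.12 through a median of 6.67 to 7.25 in Control, from 7.01 through 7.11 to 7.89 in PAT1, and from 6.97 through 7.52 to 8.35 in PAT3. All 7 PAT1 and all 10 PAT3 mice were above the Control mean of 6.64, and 3 and 7 of them were above the highest Control mouse. The log2 difference was 0.69 ± 0.21 (SE, 95% confidence interval 1.19 to 2.19 as a fold) in PAT1 and 0.84 ± 0.20 (1.36 to 2.37) in PAT3, with limma adjusted p-values of 0.0203 and 0.00179. PAT3 and PAT1 differed by 0.15 ± 0.20 (adjusted p = 0.643, 95% confidence interval 0.840 to 1.47 as a fold). H2-Q10 was a low transcript with median recovered counts of 99, 149 and 182.5 in Control, PAT1 and PAT3, a counting error of 10.1, 8.19 and 7.40%. The PAT1 call was lost without PAT1 replicate 2 (adjusted p = 0.0539), Control replicate 2 (0.0509) or Control replicate 4 (0.0556), and under the methods' test (0.0710), whereas the PAT3 call held without any single mouse (0.000836 to 0.00595).

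Cd1d1, which presents lipids, ran from 6.41 through a median of 7.03 to 7.32 in Control, from 6.61 through 6.96 to 7.77 in PAT1, and from 6.93 through 7.38 to 9.04 in PAT3. Among PAT3 mice, 5 of 10 lay above the highest Control mouse and the rest within the Control range, so the group spread widely (SD 0.66, beside 0.31 in Control). The log2 difference was 0.06 ± 0.26 (SE) in PAT1 (limma adjusted p = 0.929) and 0.52 ± 0.24 in PAT3 (adjusted p = 0.103), or 0.36 (adjusted p = 0.178) without PAT3 replicate 8, the mouse at 9.04. The difference in PAT3 was called after re-centring on the median of all genes (0.72, adjusted p = 0.0224) and after quantile normalization (0.69, adjusted p = 0.0211). PAT3 replicate 8 also had the highest value of all mice for Cfd, the adipocyte serine protease adipsin, at 14.58, and for Cd36, a fatty acid transporter, at 12.09. Cfd ran from 5.64 to 12.39 in Control, from 4.43 to 11.45 in PAT1 and from 7.53 to 14.58 in PAT3, a range that spans all groups, and the part of fat tissue in the Cd1d1 values was not tested.

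Mr1, which presents microbial vitamin B metabolites, ran from 5.75 through a median of 6.25 to 7.00 in Control, from 6.26 through 6.42 to 6.77 in PAT1, and from 5.73 through 6.91 to 7.35 in PAT3. The lowest and the highest Mr1 values of all mice were both in PAT3, while 8 of 10 PAT3 mice lay above the Control mean. The log2 difference was 0.17 ± 0.22 (SE) in PAT1 (limma adjusted p = 0.640) and 0.51 ± 0.20 in PAT3 (adjusted p = 0.0547), which narrowly missed the threshold. Without PAT3 replicate 7, the lowest mouse, it was 0.63 (adjusted p = 0.00678), and it was also called without Control replicate 2 (0.0473), Control replicate 4 (0.0199) or PAT3 replicate 10 (0.0306). Of 38 alternative settings, 13 called the Mr1 difference in PAT3, among them re-centring on the median of all genes (0.70, adjusted p = 0.00675).

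Hfe, the class I-like partner of the transferrin receptor, rose 1.47-fold in PAT3. Its log2 values were tight in Control, from 7.60 through a median of 7.86 to 8.06, and ran from 7.99 through 8.12 to 8.74 in PAT1 and from 7.93 through 8.48 to 8.75 in PAT3. All PAT mice lay above the Control mean of 7.84, and 4 of 7 PAT1 and 9 of 10 PAT3 mice were above the highest Control mouse. The log2 difference in PAT3 was 0.56 ± 0.13 (SE, 95% confidence interval 1.22 to 1.77 as a fold, limma adjusted p = 0.00178), and it was called without any single mouse (adjusted p 0.000573 to 0.00560). In PAT1 the difference was 0.39 ± 0.14 (adjusted p = 0.0525), past the threshold in 13 of 38 alternative settings, including those without PAT1 replicates 1, 6 or 7, PAT3 replicates 5 or 10, or Control replicate 2 (adjusted p 0.0357 to 0.0493). PAT3 and PAT1 differed by 0.17 ± 0.13 (adjusted p = 0.421), so that the PAT1 and PAT3 levels of Hfe were not told apart. Tfrc, the transferrin receptor itself, fell by 0.93 in PAT1 (adjusted p = 0.0161) and differed by -0.12 in PAT3 (adjusted p = 0.647).

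None of the 6 genes was called between PAT3 and PAT1 by limma, by voom or by the methods' test, although 2 of them, B2m and H2-K1, had unadjusted p-values under 0.05 (0.00535 and 0.0343). B2m was called in this contrast, as lower in PAT3, in 7 of 38 alternatives, namely with the low-count filter, sample weights, the epithelial mean as a covariate, males alone, or without PAT3 replicate 7, PAT3 replicate 10 or PAT1 replicate 6 (adjusted p 0.0248 to 0.0491). Sex had no detectable effect on the 6 genes, with female minus male differences from -0.22 (Mr1) to 0.21 (Cd1d1) and limma adjusted p-values from 0.720 to 0.988, where 0.366% of all genes were called. Nor was any of the 6 called in the F-test of treatment by sex (adjusted p from 0.462 to 0.931, 0.183% of all genes called). In that F-test and for sex, no unadjusted p-value of the 6 was under 0.05.

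Whether the genes that feed and read class I moved with the heavy chains was examined with lists of related genes. In the peptide supply list (6 of 15 genes in the table), 2 genes fell in both groups, where 11.2% and 17.9% of all genes fell in PAT1 and PAT3. Tap1, a subunit of the peptide transporter, fell by 0.80 in PAT1 and by 1.24 in PAT3 on the log2 scale (limma adjusted p = 0.00409 and 7.87e-06), and Psmb9, an interferon-induced proteasome subunit, fell by 0.70 and 1.23 (0.0249 and 3.84e-05). Tapbp, which ties Tap to the heavy chain, and the constitutive proteasome subunits Psmb5 and Psmb7 were not called, nor was Psmb10, at -0.12 and -0.32 (adjusted p = 0.589 and 0.0537). The list median was -0.01 in PAT1 and -0.19 in PAT3.

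**Figure D2:**
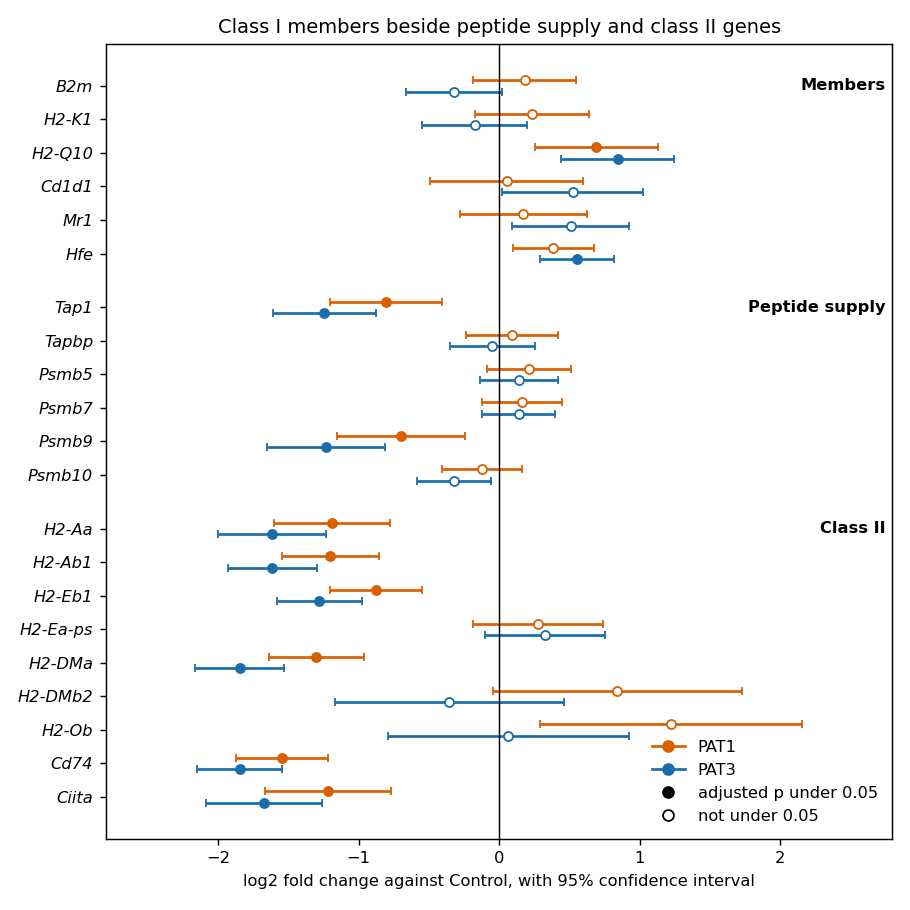
Log2 fold changes against Control (x axis) with 95% confidence intervals for the class I genes, the peptide supply genes and the MHC class II genes in the table, from the limma fit. Orange is PAT1, blue is PAT3, and filled points have an adjusted p under 0.05. H2-Q10 (both groups) and Hfe (PAT3) lie to the right of 0, whereas Tap1, Psmb9 and 6 class II genes lie to the left in both groups.

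Of 13 regulators of class I in the table, 2 rose and 2 fell in PAT1, and 5 rose and 3 fell in PAT3. Over all genes, 7.31% rose and 11.2% fell in PAT1, and 13.9% and 17.9% in PAT3. The receptor chains for interferon gamma rose, Ifngr1 by 0.57 and 0.58 and Ifngr2 by 0.96 and 0.61 on the log2 scale in PAT1 and PAT3. The transcription factor Irf1 fell by 0.66 and 0.63 (limma adjusted p = 0.00371 and 0.00181), and Irf8, of the same family, fell by 0.52 and 0.53 (0.00489 and 0.00154). In PAT3, Socs1, an inhibitor of cytokine signals, also fell by 0.84, while Ifnar1, Ifnar2 and Rela rose by 0.35, 0.28 and 0.41. Ifng itself was not called, at -0.15 and -0.55 (adjusted p = 0.732 and 0.0746). The list median was 0.05 in PAT1 and 0.26 in PAT3.

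Among 18 receptors and partners of class I in the table, 3 fell in PAT1 (Cd8a, Klrd1 and Tfrc) and 5 in PAT3 (Cd8a, Klra6, Klra7, Klrd1 and Klrk1), and none rose. The shares of all genes that fell were 11.2% and 17.9%, and those called in either direction 18.5% and 31.8%, so the counts do not set this list apart from the panel. Cd8a, the co-receptor chain of CD8+ T cells, fell by 0.94 in PAT1 and by 1.84 in PAT3 (limma adjusted p = 0.00571 and 6.32e-07). Klrd1, the CD94 chain of NK receptors, fell by 0.72 and 1.25 (0.00281 and 6.32e-07). The list median was -0.21 and -0.32. Some markers of the cells that carry these receptors fell as well, fewer in PAT1 than in PAT3. Those that fell in PAT1 included Cd8a and Klrd1 themselves. Of 11 T cell markers in the table (12 listed), 3 fell in PAT1 and 9 in PAT3, and their summed normalized counts ran from 955 to 1159 in Control, 561 to 1205 in PAT1 and 380 to 697 in PAT3. Of 5 NK cell markers (7 listed), 2 and 4 fell, and their sums ran from 946 to 2286, 297 to 1360 and 191 to 918. Only Cd8b1 of these markers was under 3 counts in some mouse. Both lists share genes with the receptors, namely Cd8a, Cd8b1, Klrd1 and Klrk1, and the part of cell numbers in these changes was not tested.

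The related class I-like genes outside the named set, Fcgrt (the neonatal Fc receptor, which also pairs with B2m) and H60a (an NKG2D ligand), were the 2 of 16 listed with a row. Fcgrt differed by 0.35 ± 0.13 (SE) in PAT1 (limma adjusted p = 0.0620) and by 0.19 ± 0.12 in PAT3 (adjusted p = 0.234). H60a differed by 0.54 ± 0.37 and -0.29 ± 0.34 (adjusted p = 0.360 and 0.541), so neither was called. The MHC class II genes gave a contrast within the same tissue, since 6 of 9 in the table fell in both groups, with list medians of -1.19 and -1.61. Over all genes, 11.2% fell in PAT1 and 17.9% in PAT3. The class II genes H2-Ob, H2-DMb2 and H2-Ea-ps were not called in either group. They differed by 1.23, 0.84 and 0.28 in PAT1 and by 0.07, -0.35 and 0.32 in PAT3. Cd74, the invariant chain of class II, fell by 1.55 and 1.85 (adjusted p = 3.18e-07 and 1.41e-09).

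The difference between a gene and B2m in the same mouse does not depend on the scaling of the sample. It was compared between groups with two-sided exact permutation tests, adjusted over 18 comparisons, those of Cd74 included. Cd74 was chosen with its results known, and its small p-values against Control lower the adjusted p-values of the other genes near the threshold. An adjustment without Cd74 was not run. H2-Q10 minus B2m was -8.70 ± 0.37 (SD, n = 7) in Control, -8.19 ± 0.29 (n = 7) in PAT1 and -7.53 ± 0.41 (n = 10) in PAT3. All 10 PAT3 mice (-8.00 to -6.74) lay above every Control mouse (-9.25 to -8.08), which held for 2.93% of the other 546 genes set against B2m. The PAT3 difference of 1.17 had the smallest p that these permutations can give, 5.14e-05 (exact permutation test, adjusted p = 0.000463). H2-Q10 minus B2m was also 0.66 higher in PAT3 than in PAT1 (exact permutation test, adjusted p = 0.00814), of which H2-Q10 itself made up 0.15 and B2m, at -0.50, the rest. In PAT1 it was 0.51 higher than in Control (exact permutation test, adjusted p = 0.0405), with 2 of 7 mice above every Control mouse. All 7 lay above for 1.1% of the other genes, and the share of genes with 2 or more above was not computed. The PAT1 call was kept in 13 of 24 fits that each left out a mouse, and lost without Control replicates 1, 2, 3, 4 or 7 or PAT1 replicates 2 to 7 (adjusted p 0.0503 to 0.0681). The difference from Control in PAT3 likewise holds that of B2m, -0.32 on the deposited scale, which was not called and whose sign depended on the scaling.

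Hfe relative to B2m was 0.88 higher in PAT3 than in Control (exact permutation test, adjusted p = 0.00814), with 9 of 10 mice above every Control mouse, and 0.67 higher than in PAT1 (exact permutation test, adjusted p = 0.0301), where Hfe itself differed by 0.17 and B2m by -0.50. The latter was lost without PAT1 replicate 1, 2, 4 or 6 (adjusted p 0.0517 to 0.0681). Cd1d1 and Mr1 relative to B2m were 0.85 and 0.83 higher in PAT3 than in Control and did not pass (exact permutation tests, adjusted p = 0.0557 and 0.0761). Without PAT3 replicate 7 or 10, the mice with the highest B2m of that group, both passed (adjusted p 0.0226 to 0.0380), and Mr1 also passed without Control replicate 4 (0.0485). Against PAT1, Cd1d1 and Mr1 were 0.97 and 0.84 higher (exact permutation tests, adjusted p = 0.0522 for each), and both passed without PAT3 replicate 7 or 10 (0.0115 to 0.0257), as Cd1d1 did without PAT1 replicate 5 (0.0450) or 7 (0.0485). H2-K1 minus B2m was -2.46 ± 0.13 (SD, n = 7) in Control, -2.41 ± 0.30 (n = 7) in PAT1 and -2.32 ± 0.23 (n = 10) in PAT3. Its differences from Control were 0.05 and 0.15 (exact permutation tests, adjusted p = 0.735 and 0.216), the second of which passed without PAT3 replicate 5 (0.20, adjusted p = 0.0482).

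**Figure D3:**
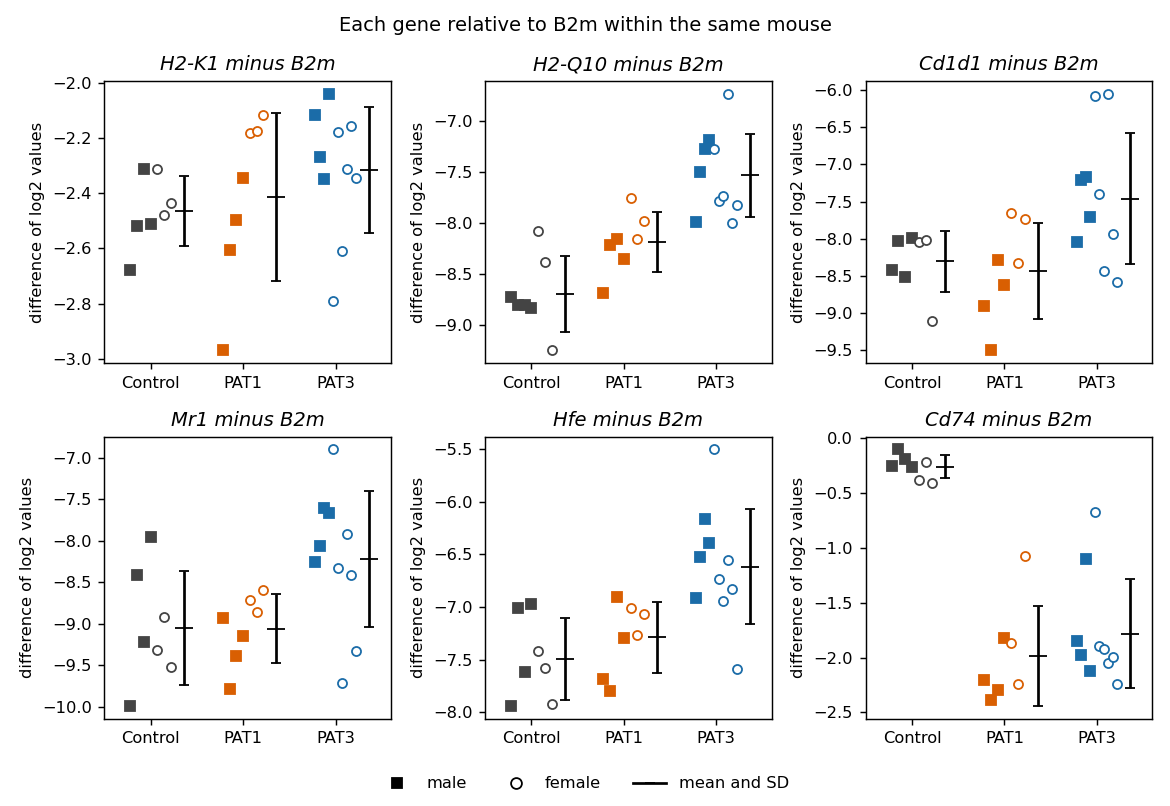
Log2 value of each gene minus that of B2m in the same mouse (y axis, its own scale per panel) by group, with the mean and SD. The H2-Q10 values of PAT3 lie above all Control values, and the values of Cd74, a class II gene chosen with its results known, lie below all Control values in both antibiotic groups.

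Set against B2m in the same mouse, the class II gene Cd74 was lower in every antibiotic-treated mouse than in any Control mouse. Cd74 minus B2m was -0.26 ± 0.11 (SD, n = 7) in Control, -1.98 ± 0.46 (n = 7) in PAT1 and -1.78 ± 0.50 (n = 10) in PAT3. The highest antibiotic-treated mouse, at -0.67, was PAT3 replicate 5, and the lowest Control mouse was at -0.41. The differences were -1.73 and -1.52, given as a description without p-values because Cd74 was chosen with its results known. Values below all Control mice were seen for 5.13% of genes in PAT1 and 2.38% in PAT3. B2m itself was not called in either comparison.

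Among mice of the same group, the 6 genes did not vary as a unit. Deviations from group means over the 24 mice are described here by Pearson's r and Spearman's rho, for 15 pairs of genes that share libraries and size factors. B2m and H2-K1 varied together (r = 0.78, rho = 0.72), and r was 0.66 without the 2 mice farthest from the median of B2m and 0.70 without PAT3 replicate 5. Mr1 ran opposite to B2m (r = -0.70, rho = -0.65) and to H2-K1 (r = -0.60, rho = -0.63), and both were similar without PAT3 replicate 5 (r = -0.67 and -0.60). Cd1d1 and Hfe varied together more weakly (r = 0.50, rho = 0.56). H2-Q10 followed B2m with r = 0.51, which was 0.35 without the 2 mice farthest in B2m, 0.61 without the 2 farthest in H2-Q10 and 0.44 without PAT3 replicate 5.

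**Figure D4:**
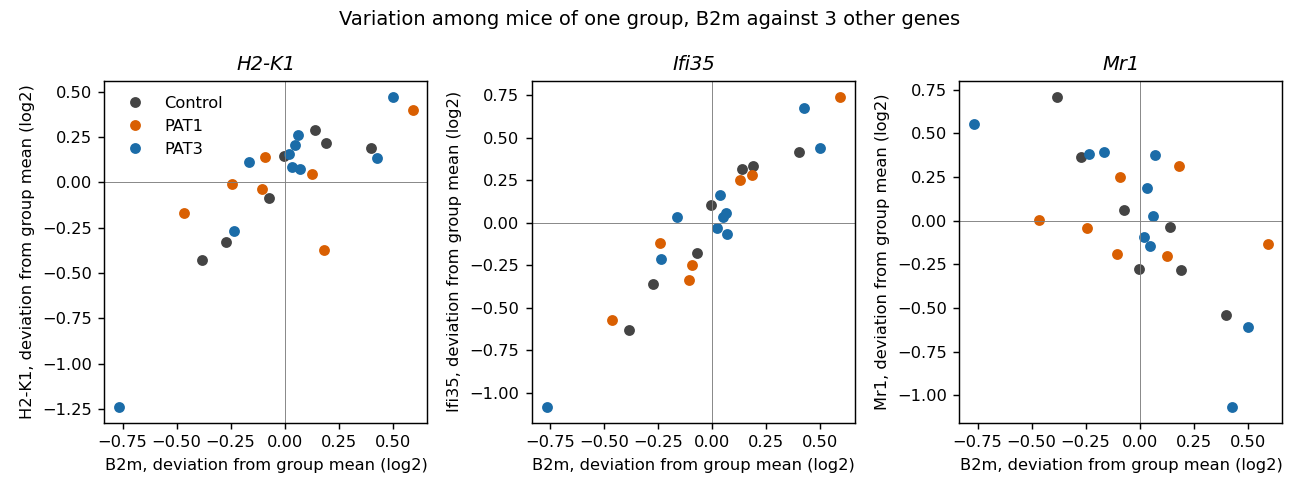
Deviation of each of the 24 mice from its group mean on the log2 scale, B2m on the x axis against H2-K1, Ifi35 and Mr1 on the y axes, coloured by group. H2-K1 and Ifi35 climb with B2m (r = 0.78 and 0.95) and Mr1 declines (r = -0.70), and PAT3 replicate 5 is the leftmost point of each panel.

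Over 425 other genes with a median normalized count of at least 20, the 3 whose deviations were most like those of B2m were Ifi35 (r = 0.95), Irf7 (r = 0.91) and Cd7 (r = 0.84). Ifi35 and Irf7 are interferon-induced genes, and Cd7 is a surface protein of T and NK cells. H2-K1 was closest to the butyrophilin-like genes Btnl2 (r = 0.95) and Btnl1 (r = 0.92), which gut epithelial cells express, and to Gm10499 (r = 0.95). Without PAT3 replicate 5 these were 0.94, 0.88 and 0.78 for B2m and 0.90, 0.86 and 0.92 for H2-K1, in the order given. For Mr1 the nearest were C1s, a complement protease (r = 0.88), Il1r1, the interleukin-1 receptor (r = 0.86), and Ccrl1, an atypical chemokine receptor (r = 0.86). Cd1d1 lay nearest to Cd36 (r = 0.91), Pdgfb (r = 0.70) and Cfd (r = 0.70). The likeness was weaker for Hfe, with Fcgr3 (r = 0.67), the macrophage marker Emr1 (r = 0.63) and the chemokine Ccl9 (r = 0.62), and weakest for H2-Q10, with Fas (r = 0.54), Mapkapk2 (r = 0.53) and B2m (r = 0.51). Of the neighbours of B2m, Irf7 and Ifi35 rose in PAT1 (by 1.38 and 0.65, limma adjusted p = 0.0153 and 0.0495) and were not called in PAT3 (0.47 and 0.21, adjusted p = 0.353 and 0.466), and Cd7 fell by 1.12 and 1.80 (0.00162 and 7.00e-07). Near H2-K1, Btnl1 and Gm10499 rose in PAT1 alone (by 0.94 and 0.79, limma adjusted p = 0.0194 and 0.0479). Ccrl1, near Mr1, and Mapkapk2, near H2-Q10, rose in PAT3 alone (by 0.75 and 0.30, limma adjusted p = 0.00615 and 0.0279). The remaining neighbours were not called against Control.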

How the data were processed

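Terminal ileum RNA of 24 mice was measured with the nCounter GX mouse immunology panel. The labels name TRIzol with an RNeasy column for the extraction and the methods a Qiagen miRNeasy kit, and which applies was not known here. The authors normalized counts with DESeq2 and deposited log2 values for 547 genes. Dividing out 1 step per sample gave whole counts for 100% of values above 0 counts (tolerance 0.01 counts). Groups and sex came from the labels.

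The deposited log2 values of each gene were fitted with limma (version 3.58.1, R 4.3.3), in 1 fit over 24 mice without covariates, pseudocount or filter, with Benjamini-Hochberg adjustment over 547 genes per contrast and a threshold of 0.05. Sex and treatment by sex had fits of their own. The limma code was tested on simulated data. The methods' test (aov and TukeyHSD) was an alternative, beside re-centring, quantile normalization, a filter at a median normalized count of 20, log2(value + 1), voom on recovered counts, covariates, single sexes and leaving out each mouse. Differences from B2m used exact permutation tests. Tests treat mice as independent. The genes and lists were chosen with earlier results of these data known, and 1 listed gene was taken out of its list and is not reported here. All 6 genes are named, list genes where called, or the 2 with the largest change otherwise and others as needed for a list, and for each gene the 3 most alike. Symbols, coordinates and promoters are from RefSeq GRCm38.p6. Counting error covers counting only. All 276 pairs of samples differed beyond sampling noise.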

Additional observations from a re-analysis of the deposited data

Results flagged for a closer look

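Over 18 tests of the 6 genes in the 3 groups, each of which chance would mark about 1 time in 20, 2 single mice stood far from the rest of their group. PAT3 replicate 5 had an H2-K1 value of 11.46, with a gap to the nearest mouse of 0.57 of the group's range (critical value 0.466). The same mouse had summed normalized counts of 191 for NK cell markers and 749 for B cell markers, the lowest of any mouse. Its sum for epithelial markers, 136393, which the most counted markers dominate, was within the range of the other mice. Yet Btnl1, which is on the epithelial list, had its lowest value of all mice there (10.12), as did Btnl2 (6.40) and Gm10499 (8.21). Control replicate 7 had a Cd1d1 value of 6.41 (gap 0.60, critical value 0.568), along with the lowest Control values of Cfd (5.64) and Cd36 (7.86). The part of these values in the flagged levels was not tested.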

How the results depend on the processing

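The PAT3 rise of H2-Q10 was called in 37 of 38 alternatives and that of Hfe in 36 of 38, and neither reversed. The exceptions were females alone for H2-Q10 (adjusted p = 0.181) and single sexes for Hfe (0.0665 in males, 0.0631 in females). The PAT1 rise of H2-Q10 was called in 32 of 38, and lost also with sample weights (adjusted p = 0.0851) and in females (0.489).

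The number of the 6 genes called in PAT1 was 1, and it was 2 after re-centring, quantile normalization, the low-count filter, limma-trend, sex or the epithelial mean as a covariate, or voom, 0 in females and 0 under the methods' test, and 0 to 2 when a mouse was left out. In PAT3 it was 2, and it was 4 after re-centring, quantile normalization, sample weights or the size factor as a covariate, 1 in males, 0 in females, and 2 to 3 with a mouse left out. Mr1 joined the 2 in PAT3 with the low-count filter, limma-trend, sex or the epithelial mean as a covariate, or voom (adjusted p 0.0289 to 0.0495). Between PAT3 and PAT1 it was 0, and it was 1 with the filter, sample weights or males alone, 2 with the epithelial mean as a covariate, and 0 to 1 with a mouse left out. The F-test called 3, which became 5 after quantile normalization, 0 in females and 2 to 4 with a mouse left out. Other shifts of the F-test count, of up to 1.5 times, are not listed. Relative to B2m, 5 of the comparisons of the class I genes passed, and 3 to 9 with a mouse left out. In either sex alone 0 passed, where 4 males against 4 cannot go below an exact permutation p of 0.0286, nor 3 females against 3 below 0.1, before adjustment, so this says little about stability. H2-Q10 minus B2m in PAT3 was 1.30 higher than Control in males and 1.01 in females. Those that moved a count past 1.5 times were without PAT1 replicates 1, 2, 6 or 7, Control replicate 4 or PAT3 replicates 5 or 10 in PAT1, without PAT3 replicates 7 or 10 or PAT1 replicate 6 between PAT3 and PAT1, and without PAT1 replicates 2, 4 or 6 or PAT3 replicates 7 or 10 relative to B2m.

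Signs turned for values that were not called. B2m was -0.12 in PAT1 females and 0.26 in PAT3 after quantile normalization, where it had been called in PAT1 (0.36, adjusted p = 0.0299), H2-K1 was 0.017 in PAT3 after re-centring, and Cd1d1 (-0.18) and Mr1 (-0.0078) turned in PAT1 males. With a mouse left out, Cd1d1 in PAT1 ran from -0.059 to 0.13. Relative to B2m, H2-K1 was -0.10 in PAT1 males and -0.24 between PAT3 and PAT1 females, Cd1d1 and Mr1 were 0.49 and 0.53 in PAT1 females, and Hfe was -0.036 in PAT1 males. With a mouse left out, Cd1d1 and Mr1 relative to B2m in PAT1 ran from -0.26 to 0.051 and from -0.17 to 0.17. Cd74 relative to B2m was -1.98 and -1.56 in PAT1 and PAT3 males and -1.39 and -1.46 in females. With a mouse left out it ran from -1.88 to -1.66 in PAT1 and from -1.65 to -1.47 in PAT3. Between PAT3 and PAT1 it was -0.067 in females and 0.08 to 0.35 with a mouse left out. Except where fewer mice were fitted, the cause of these shifts was not tested. The F-test call of B2m was lost in 22 of 38 alternatives.

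No paired analysis was possible because the labels number no replicates, so the numbers used here only name the mice. The low counts of H2-Q10, Mr1 and Cd1d1 limit their precision, and the single sexes have 3 to 6 mice per group.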
